A study of Mus musculus with 16 samples.

Results

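The mitochondrial ribosome is the organelle's own translation machine, and this account follows the transcripts of its nuclear-encoded proteins in the mouse macrophage line RAW264.7. The members were the rows of the deposited table whose symbol starts with Mrpl (large subunit) or Mrps (small subunit) and a digit, without pseudogene symbols, and with 10 or more counts in 4 or more of the 16 libraries. These were 78 genes, 49 named Mrpl and 29 named Mrps, of 21965 genes in the table. All 78 rows matched by symbol passed the count rule, so no member was lost to low counts. RNA sequencing was done in 4 groups of 4 libraries. They were cells given 50 µg/ml oxidised low-density lipoprotein (oxLDL) with tirzepatide, cells given oxLDL alone, cells given tirzepatide alone at the labelled 100 nmol/ml, and control cells given culture medium as vehicle. Tirzepatide is a synthetic peptide agonist of both incretin receptors, those for GIP and GLP-1. No duration of treatment is stated. The labels do not say whether a group's 4 libraries are separate cultures, so every p-value refers to the spread between libraries, which may be technical.

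The mitochondrial genome encodes a few hydrophobic subunits of the respiratory chain and ATP synthase, and a dedicated ribosome inside the organelle translates them. The rRNAs of that ribosome are made from mitochondrial DNA, whereas every one of its proteins is encoded in the nucleus, made in the cytosol and imported. Some of these proteins have bacterial relatives, as befits an organelle descended from bacteria, and others are specific to mitochondria and sit around the peptide exit, the central protuberance and the mRNA channel. Activated macrophages are known to change their use of respiration.

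Library totals ran from 15877278 to 17336019 counts, and the members took between 0.221% and 0.243% of them. Of 10 macrophage markers, 9 were above 1 TPM (transcript abundance scaled for length and depth) in each of the 16 libraries, Lyz2 at 15150 TPM or more, and Mertk was between 0.165 and 0.611 TPM. The mitochondrial share, that of counts on the 13 protein genes of mitochondrial DNA, was between 7.69% and 11.2%, and was highest in control library 1. The summed level of 16 pancreatic acinar markers, foreign to a macrophage line, was 8.72 to 54.8 TPM with oxLDL and tirzepatide, 6.85 to 34.2 TPM with oxLDL, 8.30 to 56.8 TPM with tirzepatide, and 271, 146, 40.4 and 22.6 TPM in control libraries 1 to 4. With the acinar share of counts as a covariate in the edgeR fit, 1 member was called with the combination against control (Mrpl28, log2 change -0.33, adjusted p = 0.0206), 0 with oxLDL and 0 with tirzepatide. Without control libraries 1 and 2 the counts of called members were 1 with the combination (Mrpl51), 1 with oxLDL (Mrpl39) and 1 with tirzepatide (Mrpl39). Mrpl28 was not called with the combination there (edgeR adjusted p = 0.0505). The shares of all genes called in these fits are not given here. Values are shares of each library's RNA, so that less of a transcript per cell and fewer cells making it cannot be told apart.

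The promoters of the members are shown first, because a share of them start beside another gene or hold the same short letter patterns. RefSeq windows of 300 bases, from 250 before to 50 after the start of transcription in build GRCm38.p6, were at hand for 69 of the 78 members. The counts themselves were made on GRCm39. These members had 75 windows, of which 48 had a start that matched the RefSeq gene start. A gene counted as holding a pattern when any of its windows did. Of 9 patterns searched on both strands, CCGGAAG, GCATGCGC and AAGATGGC are marked in capitals, on either strand. The 4 windows printed were picked after the matches were seen, to show different arrangements. Mrpl28 is the member called lower with the combination. Mrps12 and Mrps18b carry several marked patterns, and Mrps11 faces another member across a short gap. Mrpl28 lies at chr17:26123253-26123552 on the plus strand, Mrps12 at chr7:28741772-28742071 on the minus strand, Mrps18b at chr17:35916391-35916690 on the minus strand and Mrps11 at chr7:78782881-78783180 on the plus strand; each is written from 5′ to 3′ along its gene.
Mrpl28: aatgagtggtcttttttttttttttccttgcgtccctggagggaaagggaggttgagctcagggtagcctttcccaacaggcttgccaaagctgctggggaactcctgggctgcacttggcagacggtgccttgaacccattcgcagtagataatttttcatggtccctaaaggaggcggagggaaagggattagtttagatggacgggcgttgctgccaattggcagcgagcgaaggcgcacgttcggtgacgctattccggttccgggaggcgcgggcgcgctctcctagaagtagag
Mrps12: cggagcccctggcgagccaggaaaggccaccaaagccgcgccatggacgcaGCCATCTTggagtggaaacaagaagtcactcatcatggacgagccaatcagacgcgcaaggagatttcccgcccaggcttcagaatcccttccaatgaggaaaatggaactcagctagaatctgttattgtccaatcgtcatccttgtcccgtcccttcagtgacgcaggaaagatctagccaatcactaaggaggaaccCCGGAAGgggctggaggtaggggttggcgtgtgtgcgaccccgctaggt
Mrps18b: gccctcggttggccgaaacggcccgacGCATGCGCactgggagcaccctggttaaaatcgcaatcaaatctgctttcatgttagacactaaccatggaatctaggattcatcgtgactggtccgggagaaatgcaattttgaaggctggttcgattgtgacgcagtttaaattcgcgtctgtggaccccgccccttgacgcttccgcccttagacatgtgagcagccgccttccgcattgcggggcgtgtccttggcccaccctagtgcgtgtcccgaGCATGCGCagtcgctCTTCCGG
Mrps11: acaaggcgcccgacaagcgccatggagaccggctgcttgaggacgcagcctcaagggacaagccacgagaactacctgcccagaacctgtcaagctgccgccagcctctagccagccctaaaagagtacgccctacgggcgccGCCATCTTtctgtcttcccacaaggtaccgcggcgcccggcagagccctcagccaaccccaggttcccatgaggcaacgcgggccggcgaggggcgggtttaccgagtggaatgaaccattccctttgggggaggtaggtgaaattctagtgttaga

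CCGGAAG, the core bound by factors of the ETS family, stood in the windows of 26 of 69 members (37.7%), against 21.4% of 8819 other tested genes with a window and 9.93% of all 27025 genes. AAGATGGC, the core of YY1 sites, stood in 12 members (17.4%), against 5.67% of other tested genes and 3.19% of all genes. GCATGCGC, the core of sites of nuclear respiratory factor NRF1, stood in 8 members (11.6%), against 6.26% of other tested genes and 3.05% of all genes. The longer CCGGAAGT, which overlaps CCGGAAG, was in 12 members (17.4%) and 9.91% of other tested genes, and 4.31% of all. The other 5 patterns were no more frequent in the members than in other tested genes. GGGCGG was in 49.3% of members against 69.9% of other tested genes and 38.2% of all. CCAAT was in 39.1% of members against 43.5% and 41.1%, and CACGTG in 7.25% against 11.97% and 8.09%. TATAAA was in 7.25% of members against 8.12% and 15.7%, and TGACGTCA in 2.90% against 3.72% and 2.03%. A match is a description of the letters and not a site in use, and the window of Mrpl28 held none of the 3 marked patterns, which says nothing of the factors.

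A neighbouring gene starting in the opposite direction within 1000 bases was found for 26 of 69 members (37.7%), against 20.3% of other tested genes and 12.3% of all genes. Mrps11 and Mrpl46, one protein of each subunit, start 42 bases apart. Mrps12 starts 147 bases from Sars2, the mitochondrial seryl-tRNA synthetase, another gene of mitochondrial translation. Of these partners 24 were among the tested genes.

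The members differed widely in level and stood in nearly the same order in all 4 groups. Over the 16 libraries the mean level of a member ran from 7.98 to 163 TPM, with a median of 43.9 TPM against 23.4 TPM over the 11365 genes past the count rule, and 63 of the 78 were above that value. The highest were Mrpl24 at 163 ± 9.24 TPM (SD, n = 16), a protein near the exit of the nascent peptide, Mrpl52 at 152 ± 12.9 TPM, Mrpl30 at 131 ± 8.97 TPM and Mrpl13 at 127 ± 8.65 TPM. The lowest were Mrps16 at 7.98 ± 1.18 TPM, Mrpl47 at 8.95 ± 0.825 TPM, Mrps35 at 9.07 ± 0.718 TPM and Mrpl57 at 11.8 ± 1.45 TPM. Mrpl47 and Mrps35 overlap within their SD, and so do Mrpl24 and Mrpl52, and Mrpl30 and Mrpl13. The SD covers all 4 groups, and whether these neighbours in the order differ in level was not tested. Across the 78 members, Spearman's rho of the group means lay between 0.986 and 0.994 for the 6 pairs of groups, a description with no test.

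**Figure D1:**
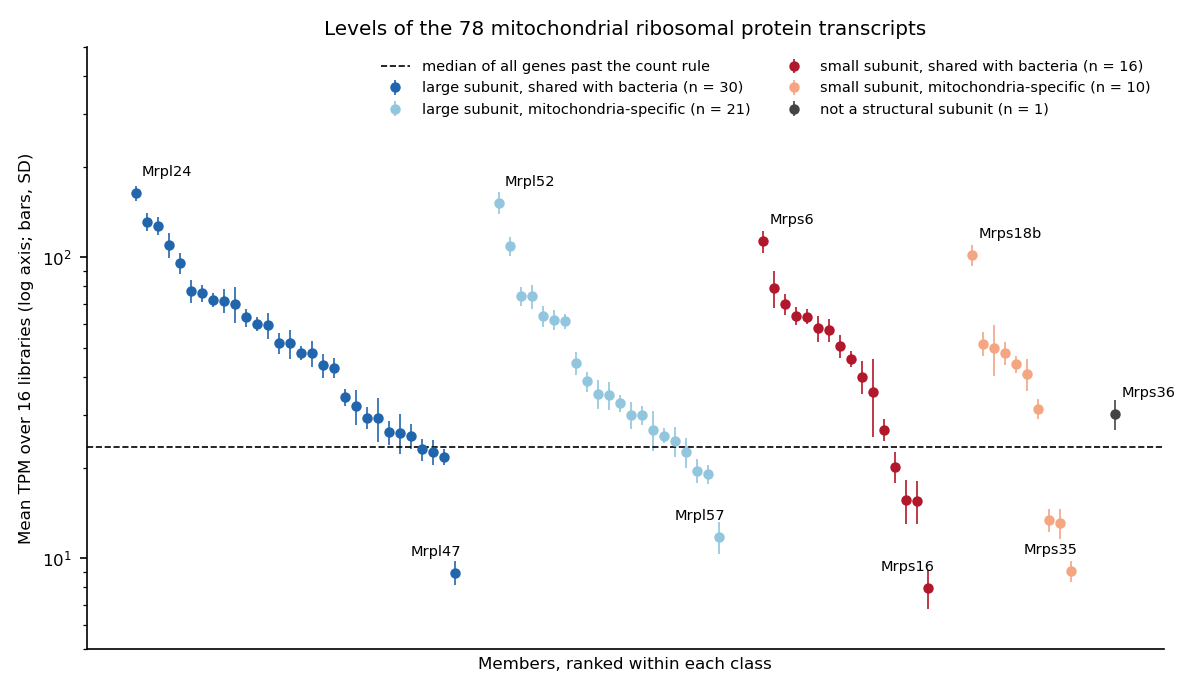
Mean level of each of the 78 members over 16 libraries in TPM on a log axis, ranked within structural classes, with the SD as bars and the median of the 11365 genes past the count rule (23.4 TPM) as a dashed line. Proteins with bacterial relatives and mitochondria-specific proteins overlap in range, and Mrpl24, Mrpl52, Mrps6 and Mrps18b lead their classes.

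By structural class the medians were 49.9 TPM for the 30 large-subunit proteins shared with bacteria, 34.8 TPM for the 21 mitochondria-specific ones, 48.4 TPM for the 16 small-subunit proteins shared with bacteria and 42.5 TPM for the 10 mitochondria-specific ones. The classes overlap in range. The 3 Mrps18 genes encode related proteins placed at different sites. Mrps18b, in the small subunit, stood at 102 TPM, Mrps18c at 50.8 TPM, and Mrps18a, which sits in the large subunit despite its symbol, at 44.5 TPM. Mrps30, also a large-subunit protein in spite of its name, was at 25.5 TPM. Mrps36 is not a structural protein of the mitochondrial ribosome and belongs to the 2-oxoglutarate dehydrogenase complex; it was at 30.1 TPM.

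The members' levels stayed near control in every treated group. With oxLDL against control, no member passed the test (edgeR quasi-likelihood test on rounded expected counts, adjusted p under 0.05 over 11319 genes), where 4.54% of all tested genes did. DESeq2 called 2 members, both lower, and 5.97% of all genes. At an unadjusted p under 0.05 there were 9 members, 1 higher and 8 lower, against 18% of all genes. The median log2 change of the 78 members was -0.02, beside -0.002 over all genes, and 37 members had a positive and 41 a negative change. The members' median lay between -0.05 and -0.01 when 1 library was left out. It was -0.05 without control library 4 or oxLDL library 2, -0.02 without control library 1, -0.01 without control library 3 or oxLDL library 3, and 0.01 without control libraries 1 and 2 together.

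With tirzepatide against control, no member was called by edgeR or DESeq2, against 4.08% of all genes with edgeR and 6.08% with DESeq2. At an unadjusted p under 0.05 there were 9 members, 5 higher and 4 lower, against 18.6% of all genes. The median log2 change was 0.01, with either sign when 1 library was left out (-0.02 to 0.02). It was negative without control library 4 or any 1 of the 4 tirzepatide libraries. The combination against control gave 1 call with edgeR, lower, against 8.94% of all genes. DESeq2 gave 2 calls, 1 of them higher, against 10.3% of all genes. At an unadjusted p under 0.05 there were 14 members, 4 higher and 10 lower, against 23.4% of all genes. Here 53 of 78 changes were negative and 32.1% positive, with a median of -0.05; over all genes 49.3% were positive, with a median of -0.003. The members' median lay between -0.08 and -0.04 when 1 library was left out, moving most without control library 4 or combination library 2 (-0.08 each), and was -0.03 without control libraries 1 and 2 together.

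Between the treated groups no call was made. The combination against oxLDL called 0 members with edgeR and with DESeq2, against 0.0353% of all genes with edgeR and 0.186% with DESeq2, with 3 members at an unadjusted p under 0.05 against 10.1% of all genes. The combination against tirzepatide called 0 members with both tools, against 1.54% of all genes with edgeR and 2.83% with DESeq2, with 5 members at an unadjusted p under 0.05 against 13.8%. The interaction (the log2 change of the combination less the 2 single changes added up) called 0 with both tools, against 0.0707% of all genes with edgeR and 0.512% with DESeq2, with 4 members at an unadjusted p under 0.05 against 10.3%. The median log2 change against oxLDL was -0.03, and -0.05 to -0.01 when 1 library was left out; it was -0.01 without oxLDL library 2 or combination library 1, -0.05 without oxLDL library 3 and -0.04 without combination library 2. Against tirzepatide 54 of 78 changes were negative and 30.8% positive, against 49.9% positive over all genes. The median there was -0.05, beside -0.0004 over all genes, and -0.07 to -0.03 when 1 library was left out, the value nearest 0 being that without combination library 3. The median of the interaction was -0.02, and -0.04 to 0.002 when 1 library was left out; it was above 0 without control library 4 (0.0009) or oxLDL library 2 (0.002), -0.01 without tirzepatide library 3 or combination library 1, and -0.04 to -0.03 without control library 1, oxLDL library 3 or 4, tirzepatide library 4 or combination library 2 or 4. The counts of members called are all at or under the shares of all tested genes. For 75 to 78 of the 78 members, depending on the comparison, the 95% interval of the change stayed within 1.5-fold either way, the typical standard error being 0.08 on the log2 scale (0.11 for the interaction).

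**Figure D2:**
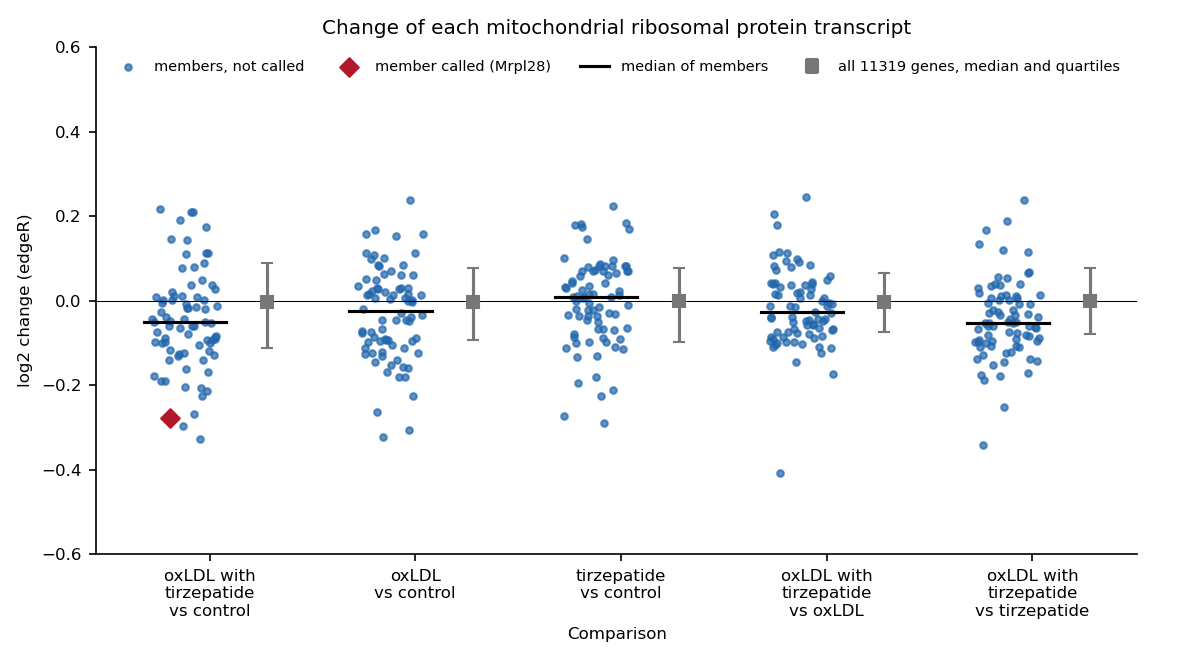
log2 change of each member in 5 comparisons (points), with the median of the members as a black bar and the median and quartiles of all 11319 tested genes as grey squares and bars. The red diamond is Mrpl28, the member called lower with oxLDL and tirzepatide against control; no other member was called.

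CPM, a gene's counts scaled to library size by edgeR, did not overlap between the groups for 7 members with oxLDL against control, 1 above and 6 below, as for 11% of all genes. The groups were apart for 5 members with tirzepatide against control, where 10.5% of all genes were, and for 4 with the combination against control, where 10.5% were. For the combination the counts were 3 against oxLDL and 1 against tirzepatide, where 5.84% and 6.94% of all genes were apart.

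Among large-subunit proteins, Mrpl28, the relative of a bacterial protein of the large subunit, was the member called. It was at 20.8, 25.3, 23.3 and 24.6 CPM with oxLDL and tirzepatide, 26.3, 26.9, 22.1 and 25.4 CPM with oxLDL, 24.3, 24.0, 25.9 and 26.4 CPM with tirzepatide, and 27.6, 28.6, 31.2 and 26.6 CPM in control. All 4 combination libraries lay under all 4 control libraries, and so did the 4 tirzepatide libraries, while oxLDL library 2 passed the lowest control. The log2 change for the combination against control was -0.28 (SE 0.08, edgeR adjusted p = 0.0270). The single treatments gave -0.18 each (edgeR adjusted p = 0.208 with oxLDL and 0.192 with tirzepatide). The call was kept in 20 of 25 alternative settings. It was lost with the compared groups fitted alone (adjusted p = 0.0686), without control libraries 1 and 2 together (0.0505), and without control library 2 (0.0673), control library 3 (0.110) or combination library 1 (0.102).

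Mrpl52, a mitochondria-specific large-subunit protein, was at 30.6, 31.7, 32.4 and 32.4 CPM with the combination, 26.2, 32.0, 28.9 and 32.7 CPM with oxLDL, 30.3, 32.2, 30.5 and 29.6 CPM with tirzepatide, and 36.3, 37.2, 31.2 and 35.5 CPM in control. Control libraries 1, 2 and 4 lay over all 12 treated libraries, and control library 3 lay among them. Its log2 change was -0.23 with oxLDL (edgeR adjusted p = 0.0695; DESeq2 adjusted p = 0.0465), -0.19 with tirzepatide (edgeR adjusted p = 0.119) and 0.28 for the interaction (SE 0.10, edgeR adjusted p = 0.317).

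Mrpl40, a protein of the central protuberance, was at 35.2, 42.7, 38.3 and 35.5 CPM with the combination, 37.2, 38.1, 30.8 and 34.8 CPM with oxLDL, 36.8, 38.4, 35.8 and 36.9 CPM with tirzepatide, and 32.0, 31.2, 35.2 and 32.2 CPM in control. Its combination libraries were all above control library 3, the highest control, though library 1 only just; the log2 change was 0.22 (SE 0.07, edgeR adjusted p = 0.0592; DESeq2 adjusted p = 0.0458). Mrpl39, at the peptide exit, had a log2 change of 0.17 with tirzepatide (SE 0.06, edgeR adjusted p = 0.124), with 38.5 to 40.5 CPM in tirzepatide libraries 1, 2 and 4 and 37.2 CPM in library 3, against 31.4 to 37.7 CPM in control. Mrpl50 had a log2 difference of 0.20 between the combination and oxLDL (SE 0.07, edgeR adjusted p = 0.358), with 42.9 to 44.4 CPM in the combination and 36.0 to 40.2 CPM with oxLDL. Mrpl34 had a log2 difference of -0.34 between the combination and tirzepatide (SE 0.13, edgeR adjusted p = 0.222) and Mrpl4 one of -0.14 (SE 0.06, edgeR adjusted p = 0.287).

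The large-subunit members fixed for their roles gave no call in any of the 6 comparisons. Mrpl12, the stalk protein that recruits translation factors, had a log2 change of -0.13 with the combination against control (edgeR adjusted p = 0.273). Mrpl45, which holds the ribosome to the inner membrane, was at -0.10 (edgeR adjusted p = 0.209) and varied least of the 78, with a coefficient of variation of 4.56% in CPM. The log2 change of Mrpl44, with its RNase III fold, was 0.04. Mrpl58, a release factor-like hydrolase that frees stalled ribosomes, was at -0.10, and Mrpl55 at -0.16 (edgeR adjusted p = 0.343). Mrps18a and Mrps30 were at -0.04 and -0.05.

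**Figure D3:**
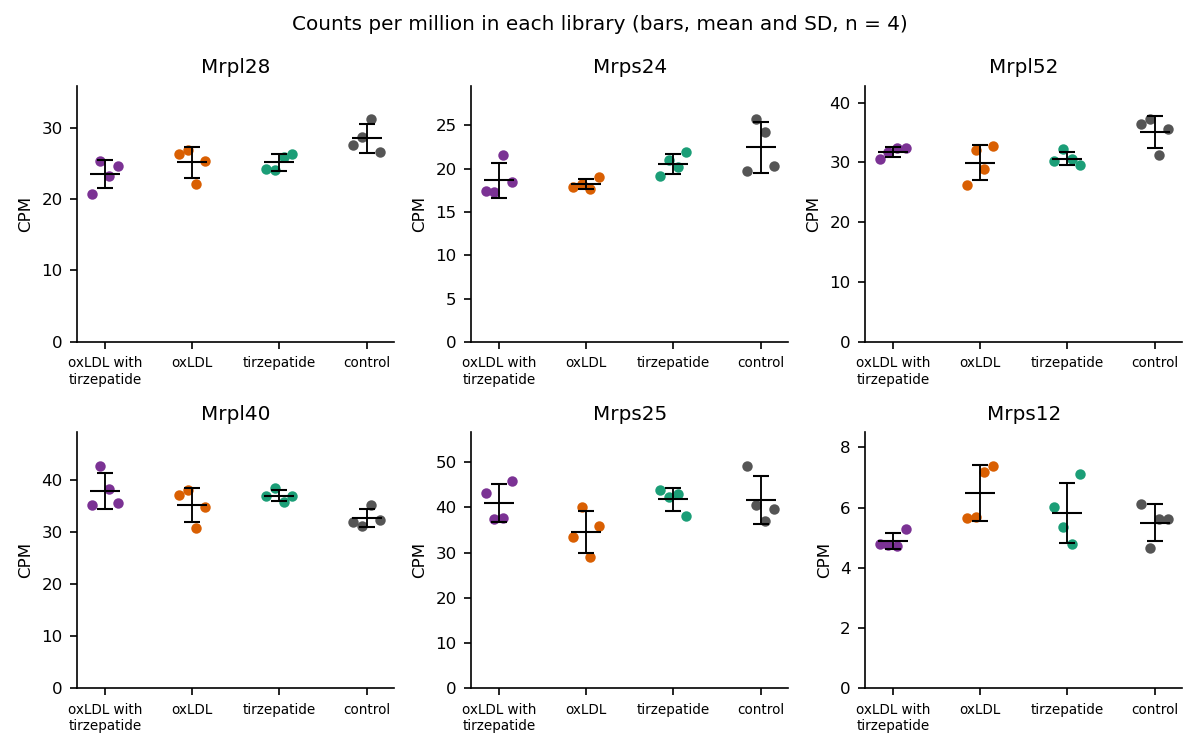
CPM of 6 members in each library, in 4 groups of 4 libraries, with the mean and SD as bars. On average Mrpl28 lies lowest with oxLDL and tirzepatide and highest in control, and the groups of Mrpl52, Mrps25 and Mrps12 overlap in part.

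In the small subunit, Mrps24, the relative of a bacterial protein at the mRNA entry, was at 17.4, 17.3, 21.6 and 18.4 CPM with the combination, 17.9, 18.2, 17.6 and 19.1 CPM with oxLDL, 19.2, 21.0, 20.1 and 21.9 CPM with tirzepatide, and 19.7, 25.7, 24.3 and 20.3 CPM in control. The oxLDL libraries lay under all controls. The log2 change was -0.31 with oxLDL (SE 0.09, edgeR adjusted p = 0.0529; DESeq2 adjusted p = 0.0295) and -0.27 with the combination (SE 0.09, edgeR adjusted p = 0.0650). The call was gained in 9 of 25 alternative settings with oxLDL and in 5 with the combination.

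Mrps25 was at 43.2, 37.3, 37.7 and 45.8 CPM with the combination, 33.4, 40.2, 29.0 and 35.8 CPM with oxLDL, 43.8, 42.3, 42.9 and 38.1 CPM with tirzepatide, and 49.2, 40.5, 37.0 and 39.7 CPM in control. Its oxLDL libraries 1, 3 and 4 were the lowest of the 16, and library 2 lay among the others. The log2 change was -0.26 with oxLDL against control (SE 0.09, edgeR adjusted p = 0.105), and 0.25 for the combination against oxLDL (edgeR adjusted p = 0.366).

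Mrps12, a protein of the decoding centre, was at 4.77, 4.77, 4.71 and 5.28 CPM with the combination and 5.65, 5.69, 7.17 and 7.38 CPM with oxLDL. It was at 6.01, 5.37, 4.80 and 7.11 CPM with tirzepatide and 6.12, 4.64, 5.62 and 5.61 CPM in control. The combination libraries lay under all oxLDL libraries, with a log2 difference of -0.41 (SE 0.15, edgeR adjusted p = 0.366). Its counts ran from 74 to 124. The log2 change of its neighbour Sars2 was -0.34 with the combination against control and -0.22 with oxLDL (edgeR adjusted p = 0.151 and 0.472), while that of Mrps12 was -0.17 and 0.24.

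Mrps6, the highest small-subunit transcript shared with bacteria, was at 41.4 to 51.8 CPM with the combination and 48.9 to 54.5 CPM with tirzepatide, a log2 difference of -0.17 (SE 0.06, edgeR adjusted p = 0.208), and at -0.26 for the interaction (edgeR adjusted p = 0.300). Mrps22 had a log2 change of 0.18 with tirzepatide against control (SE 0.06, edgeR adjusted p = 0.101), with 26.8 to 28.8 CPM against 23.7 to 25.9 CPM and no overlap. The log2 changes with the combination against control were -0.06 for Mrps18b, -0.11 for Mrps18c and -0.04 for Mrps28, each with a 95% interval that includes 0. Mrps36, of the dehydrogenase complex, had a log2 change of -0.09 in the same comparison.

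Mrps5 and Mrps23 had the widest spread of TPM, and a narrow one of counts. Mrps5 was at 28.7, 55.4, 37.0 and 32.0 TPM with the combination, 48.2, 40.7, 29.9 and 31.4 TPM with oxLDL, 17.6, 50.6, 30.3 and 48.7 TPM with tirzepatide, and 29.8, 26.0, 32.5 and 30.4 TPM in control, a coefficient of variation of 29.0%. In CPM the coefficient was 5.49%, and its counts ran from 478 to 614. The counts behind 1 TPM, which follow the transcript length that the authors' estimate assigned in each library, ran from 10.5 to 34.0. Mrps23 had 18.97% in TPM and 6.17% in CPM, with 6.24 to 11.3 counts behind 1 TPM. The median coefficient over members was 8.72% in TPM and 8.11% in CPM, and 5 members had more than 1.5 times the variation in TPM, so differences between groups are given in CPM.

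**Figure D4:**
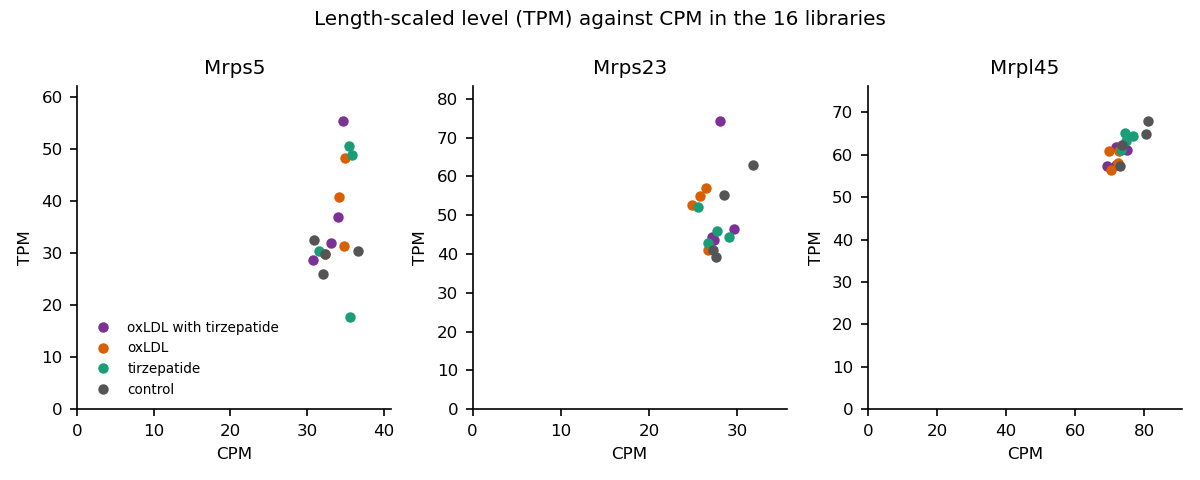
TPM against CPM in the 16 libraries for Mrps5, Mrps23 and, for comparison, Mrpl45. The libraries spread upward over a wide range of TPM at nearly constant CPM for Mrps5 and Mrps23, and lie close together for Mrpl45.

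By class, the 16 small-subunit proteins shared with bacteria had a median change of -0.10 with the combination against control, 13 negative, beside -0.05 for the 30 large-subunit proteins shared with bacteria. The 21 mitochondria-specific large-subunit proteins were at -0.04 and the 10 of the small subunit at -0.02. By zone, the 5 proteins of the L7/L12 stalk were at -0.09, the 8 of the central protuberance at -0.04 and the 8 at the peptide exit at -0.02. None of these classes held more than 1 called member in any comparison, and whether they differ from one another was not tested.

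Libraries of a group also differed over the members. In control library 4, 58 of 78 members lay under the mean of their own group, and in oxLDL library 2 57 of 78 lay above it. The median deviation of the members from their mean over all libraries lay between -0.06 and 0.06 on the log2 scale in the 16 libraries.

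The same libraries gave other counts in related gene groups. Of 80 tested genes for cytosolic ribosomal proteins, 46 were called lower with the combination against control, 0 with oxLDL and 27 with tirzepatide (DESeq2: 53, 4 and 37), and 35 were lower with oxLDL at an unadjusted p under 0.05; the median changes were -0.19, -0.10 and -0.14. Of 79 nuclear genes of the respiratory chain and ATP synthase, 4, 0 and 1 were called lower in the same order (DESeq2: 5, 0 and 3), with 6 at an unadjusted p under 0.05 with oxLDL and medians of -0.08, -0.04 and -0.09. The mitochondrial ribosomal proteins gave 1, 0 and 0 of 78 with medians of -0.05, -0.02 and 0.01. DESeq2 called 2 of them with the combination, 1 of these higher, 2 with oxLDL and 0 with tirzepatide. With oxLDL 8 were lower and 1 higher at an unadjusted p under 0.05. Over all tested genes, edgeR called 8.94%, 4.54% and 4.08% in the same order, in either direction. DESeq2 called 10.3%, 5.97% and 6.08% of all genes, and 18% had an unadjusted edgeR p under 0.05 with oxLDL. The difference between these gene groups was not tested. Their counts per gene also differ, and with them the size of change that the test can call. The mitochondrial ribosomal proteins made up 0.221% to 0.243% of counts in the 16 libraries. The cytosolic ribosomal proteins made up 5.18% to 5.58% of counts with the combination, 5.61% to 5.81% with oxLDL, 5.42% to 5.69% with tirzepatide and 5.74% to 6.29% in control.

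**Figure D5:**
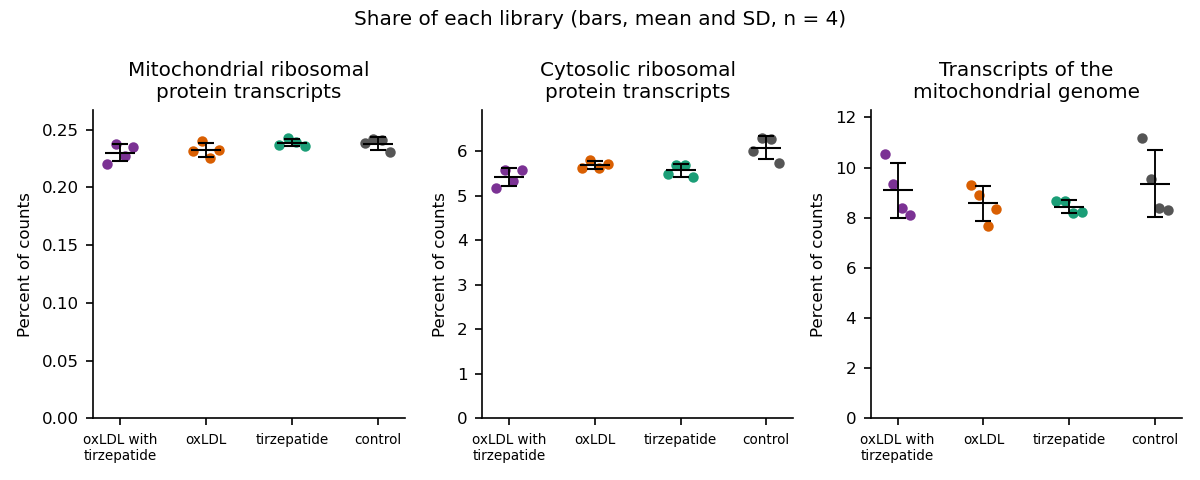
Percent of each library's counts on mitochondrial ribosomal protein genes, cytosolic ribosomal protein genes and the 13 protein genes of the mitochondrial genome, with group means and SD as bars (n = 4 libraries). The first share lies between 0.221% and 0.243% in the 16 libraries with overlapping groups, while the cytosolic share is on average highest in control.

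The lists of genes that build and serve the mitochondrial ribosome are short, so whether calls were fewer than over all genes cannot be told. Of 26 assembly genes, edgeR called 1 higher and 1 lower with the combination against control, 1 higher with oxLDL and 0 with tirzepatide, where 8.94%, 4.54% and 4.08% of all genes were called. DESeq2 called 1 higher and 2 lower, 1 higher, and 1 higher in the same order, against 10.3%, 5.97% and 6.08% of all genes. With tirzepatide 3 were higher and 1 lower at an unadjusted p under 0.05, against 18.6% of all genes. Trub2, a mitochondrial pseudouridine synthase, was at 50.7, 41.7, 47.2 and 49.3 CPM with the combination and 45.6, 48.8, 44.9 and 43.5 CPM with oxLDL. It was at 47.8, 42.2, 44.3 and 40.5 CPM with tirzepatide and 38.2, 36.3, 37.8 and 38.5 CPM in control, under all 12 treated libraries. The log2 change was 0.32 with the combination (SE 0.06, edgeR adjusted p = 0.00249, kept in 25 of 25 settings) and 0.28 with oxLDL (SE 0.06, edgeR adjusted p = 0.0111). That with oxLDL was kept in 22 settings, and lost without control library 2 (adjusted p = 0.0526), without oxLDL library 2 (0.0591) and without control libraries 1 and 2 (0.0953). With tirzepatide it was 0.21 (edgeR adjusted p = 0.0595).

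Rpusd3, another pseudouridine synthase of the organelle, was at 2.19 to 2.84 CPM with the combination against 3.26 to 4.80 CPM in control. Its counts were low, from 34 to 82 in a library. The log2 change was -0.63 (SE 0.19, edgeR adjusted p = 0.0397). The call was lost in 7 of 25 settings, among them without control library 3 (adjusted p = 0.166) or 4, or combination library 1, 2 or 4. With the combination against control, edgeR called 1 of 13 translation factors and 1 of 15 genes of mitochondrial transcription and RNA handling. Of all genes, 8.94% were called. Of 13 translation factors, Guf1, a GTPase of elongating ribosomes, was higher with the combination, at 37.4 to 44.5 CPM against 33.9 to 37.5 CPM in control; the change was 0.20 (SE 0.06, edgeR adjusted p = 0.0439), and the call was lost in 16 of 25 settings, 12 of which leave out 1 library each: control 2, 3 or 4, combination 1 or 4, any of the 4 oxLDL libraries, and tirzepatide 1, 2 or 3 (highest adjusted p = 0.183, without combination library 1). Of 15 genes of mitochondrial transcription and RNA handling, Tefm, the elongation factor of the mitochondrial RNA polymerase, was at 7.19 to 7.87 CPM against 4.50 to 6.18 CPM, a change of 0.47 (SE 0.15, edgeR adjusted p = 0.0431) lost in 12 of 25 settings, among them without control library 2, 3 or 4, any combination library, oxLDL library 3 or tirzepatide library 1, 2 or 3 (highest adjusted p = 0.165, without control library 3). None of 5 mitochondrial ribosomal proteins with other symbols and none of 20 genes for mitochondrial aminoacyl-tRNA synthetases was called by edgeR in any comparison. DESeq2 called 0 of the 5. Of the synthetases it called 1 higher with the combination against control and 1 higher with the combination against tirzepatide. Of all genes, DESeq2 called 10.3% and 2.83% in these comparisons. At an unadjusted p under 0.05, 1 of the 5 and 5 of the 20 passed for the combination against control, against 23.4% of all genes.

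The 13 protein genes of mitochondrial DNA, which this ribosome translates, gave no call with edgeR or DESeq2. At an unadjusted p under 0.05 there were 0 with the combination, 1 with oxLDL and 5 with tirzepatide against control, all lower, where 23.4%, 18% and 18.6% of all genes passed. Their median changes were -0.03 with the combination, -0.12 with oxLDL and -0.15 with tirzepatide. For the interaction, the median was 0.27 with 13 of 13 positive, against 48.9% positive over all genes. An unadjusted p under 0.05 was found for 5, against 10.3% of all genes. Whether the 13 genes vary separately from one another was not tested, and their medians with a library left out are not given here. The mitochondrial share of counts is the sum over these 13 genes, so it is not a separate measure. It was 8.10% to 10.5% with the combination, 7.69% to 9.32% with oxLDL, 8.18% to 8.67% with tirzepatide and 8.32% to 11.2% in control. In each of the 4 groups it was higher in libraries 1 and 2 than in libraries 3 and 4. Library 1 held the highest value with the combination, with oxLDL and in control.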

How the data were processed

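Expected counts per gene were estimated and deposited by the authors with RSEM, without scaling between libraries, and the same table holds TPM as deposited by the authors. Bowtie2 2.2.8 and RSEM, with fastp 0.18.0 and StringTie 1.3.1, are the tools in the submitters' processing notes, and GRCm39 and mm39 the builds; an annotation release is not given in the sources used here. A symbol was missing in 90 rows (0.0307% of counts). Expected counts were rounded and tested with edgeR 4.0.16 in R 4.3.3: filterByExpr with a minimum count of 10, TMM normalization, and quasi-likelihood tests of 6 contrasts in 1 fit of 16 libraries, with Benjamini-Hochberg adjustment over 11319 genes. The estimated biological coefficient of variation was 0.0633. The procedure was run on simulated counts with the same dispersion for every gene and changes set in advance. The outcome is not given here, so it says nothing of the power for changes as small as those of the members. Levels are TPM and changes come from counts. Alternatives were DESeq2 1.42.0, other scaling and filters, only the compared groups, a replicate block, covariates for the mitochondrial percent and the acinar share on a log2 scale, and leaving out libraries. The members and lists were chosen with earlier results of these data known. Named members are the called ones, up to 3 with the smallest p per contrast, the 4 highest and 4 lowest in TPM, 12 fixed for their roles and the 3 most variable.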

Additional observations from a re-analysis of the deposited data

Results flagged for a closer look

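In 7 of 132 groups of 4 libraries examined, 1 library stood apart from the other 3 by the gap to its nearest neighbour relative to the group's range (Dixon's test at the 95% level); chance alone flags about 1 in 20 groups. Values are TPM. Mrps23 in combination library 3 was at 74.367, against 43.489 to 46.511 in the others. As given above, Mrps23 varied more in TPM than in CPM, so this gap need not be one in counts. Mrpl55 in combination library 4 was at 24.893, against 20.4 to 21.002, and in control library 4 at 23.081, against 25.139 to 25.205. Mrpl58 in oxLDL library 1 was at 27.286, against 25.767 to 25.945. Mrps12 in control library 2 was at 12.275, against 15.665 to 16.005. Mrpl4 in control library 3 was at 84.299, against 75.584 to 75.966. Mrps18b in control library 2 was at 107.151, against 98.475 to 98.614.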

How the results depend on the processing

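No change of sign was found in a called value under 25 settings. Counts of called members moved most against control. With oxLDL (0 as reported) there were 2 without the count filter, 2 with DESeq2, 2 with the replicate block, 2 with the mitochondrial share as a covariate and 1 without control libraries 1 and 2. With tirzepatide (0) there were 1 without control libraries 1 and 2 and 2 with the mitochondrial covariate. With the combination (1) there were 0 with only the compared groups, 2 with DESeq2, 3 with the replicate block and 5 with the mitochondrial covariate. Leaving out 1 library gave 0 to 1 with oxLDL, 0 to 0 with tirzepatide and 0 to 6 with the combination: 6 without control library 1, and 0 without control library 2, control library 3 or combination library 1. Without control libraries 1 and 2, the called member was Mrpl39 with oxLDL and with tirzepatide and Mrpl51 with the combination. The other 3 contrasts stayed at 0. Apart from DESeq2, the shares of all genes called in these settings are not given here. Whether the members moved more than all genes, and the cause of these moves, was not tested. The replicate numbers did not meet the criterion for pairing (every same-numbered pair correlated over 0.1): 5 of 24 did (-0.127 to 0.189), and 6 of 16 libraries matched their own number best. The labels do not say what a number stands for, and the mitochondrial share was higher in libraries 1 and 2 than in 3 and 4 in all 4 groups. The calls added with the replicate block were Mrps24 and Mrpl52 with oxLDL, and Mrps24 and Mrpl40 with the combination. Among changes of named genes, 43 lost and 26 gained a call over the settings. The other 634 results were unchanged, a count that also takes in mean TPM levels, which have no call. Among members, low counts limit Mrps28, Mrps12 and Mrpl54 most, and their lowest counts in a library were 66, 74 and 83. Rpusd3, not a member, had 34 to 82 counts in a library.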
